A study of Mus musculus with 8 samples.

Results

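The genes described here are those of serine synthesis, of the one-carbon steps that follow it, of D-serine formation and of serine transport. They were chosen by symbol as a list of 10 genes (Phgdh, Psat1, Psph, Shmt1, Shmt2, Mthfd1, Mthfd2, Mthfd1l, Srr and Slc1a4), and all 10 were found among the 45706 genes of the count table and passed the filter on low counts. The data are RNA sequencing of mouse hypothalamic tissue with translating ribosome affinity purification (TRAP). In TRAP, antibodies to GFP capture tagged ribosomes, with the RNA they carry, from homogenised tissue. The 4 immunoprecipitates (IP) are enriched for RNA bound to tagged ribosomes but also held marker RNA of other cell types. The 4 inputs are labelled as hypothalamic cells and hold RNA of all cell types of the dissected tissue. All 8 libraries share 1 genotype. The mice carried floxed Mff (Mff fl/fl), the gene of a mitochondrial fission factor, Cre expressed from the Agrp locus (AgRP-IRES-Cre tg/wt) and a Cre-dependent tagged ribosomal protein (RpL10a-GFP fl/wt). That Cre acts in cells that express Agrp or did so earlier, and it both deletes Mff and switches on the tagged RpL10a. Each library pools 3 random-fed mice of mixed sex aged 11 to 12 weeks. Libraries of mice with wild-type Mff were not analysed here, so every comparison is between the fractions of knockout tissue and none measures the effect of the deletion.

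Cells make serine from the glycolytic intermediate phosphoglycerate in a short chain. PHGDH oxidises it, PSAT1 adds the amino group and PSPH removes the phosphate. Serine hydroxymethyltransferases, SHMT1 in the cytosol and SHMT2 in mitochondria, then pass a carbon unit from serine to folate and leave glycine, and the MTHFD enzymes interconvert the folate-bound unit. In the brain the synthetic enzymes are best known from astrocytes and radial glia, while serine racemase, the product of Srr, makes D-serine, a co-agonist of NMDA receptors, chiefly in neurons. SLC1A4, also called ASCT1, carries serine and other small neutral amino acids across the plasma membrane.

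Of the 10 genes, 4 were lower in IP (Phgdh, Psat1, Psph and Srr), 1 was higher (Slc1a4) and 5 did not pass the threshold. Genes were called at 0.05 after Benjamini-Hochberg adjustment over all 17000 tested genes, with p-values from the quasi-likelihood test of edgeR. Of all tested genes 45.4% were called, 20.9% lower and 24.5% higher. The median log2 fold change of the 10 genes was -0.46, with a range from -2.17 to 1.11, beside a median of -0.01 over all tested genes. Positive values mean a higher level in IP.

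The regions around the start sites are shown for the 3 synthesis genes that were lower in IP, for Slc1a4, which was higher, and for Shmt2, whose mean was also higher in IP but did not pass the threshold. Each sequence runs 5′ to 3′ on the gene's strand, from 120 bases before the start site through the first 10 bases from it, and was taken from RefSeq's promoter table for GRCm38.p6, in which all 10 genes had an entry. The regions are chr3:98339960-98340089 for Phgdh, chr19:15925050-15925179 for Psat1, chr5:129787244-129787373 for Psph, chr11:20332704-20332833 for Slc1a4 and chr10:127522435-127522564 for Shmt2, all on the minus strand. Capitals mark matches to the motifs described after the sequences.
Phgdh: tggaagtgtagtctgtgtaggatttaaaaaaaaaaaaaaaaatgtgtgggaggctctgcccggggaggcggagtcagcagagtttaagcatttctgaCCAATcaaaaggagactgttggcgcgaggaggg
Psat1: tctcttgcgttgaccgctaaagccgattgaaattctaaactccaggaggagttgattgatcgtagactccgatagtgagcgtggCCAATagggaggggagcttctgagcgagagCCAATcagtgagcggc
Psph: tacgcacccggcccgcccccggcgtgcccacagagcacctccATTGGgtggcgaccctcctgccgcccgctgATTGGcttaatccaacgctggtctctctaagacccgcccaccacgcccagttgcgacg
Slc1a4: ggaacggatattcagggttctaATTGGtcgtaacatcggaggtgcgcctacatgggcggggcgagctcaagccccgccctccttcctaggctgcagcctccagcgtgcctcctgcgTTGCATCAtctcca
Shmt2: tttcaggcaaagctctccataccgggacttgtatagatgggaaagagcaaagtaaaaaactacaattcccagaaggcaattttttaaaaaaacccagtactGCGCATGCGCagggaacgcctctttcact

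These letters were searched on both strands in windows of 300 bases, from 250 bases before the start site to 50 after it. The core of the composite element bound by the stress factor ATF4, TGATGNAA, was found in 1 of the 10 genes, Slc1a4, where it lies on the reverse strand across the start site. It was found in 3.97% of the 32851 promoters of that length and, among genes of a list of ATF4 and its targets, in 8 of the 18 with an entry. The core motif of nuclear respiratory factor, spelled by the capitals in the Shmt2 line, was found in Shmt2 alone of the 10 genes, and in 0.971% of all promoters. The CCAAT box, a common promoter element searched after the sequences had been seen, was found in 7 of the 10 genes (all but Shmt2, Mthfd1l and Srr) and in 37.4% of all promoters. It occurs in genes that were lower, higher and not called. RefSeq lists a further start site of Psat1, whose window holds none of the motifs searched. The palindromic cAMP response element TGACGTCA and the E-box CACGTG were searched as well and were found in none of the 10 genes. They were present in 1.79% and 7.15% of all promoters. The motifs share no overlapping match in these windows, and a match describes letters only.

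The 3 synthesis genes were all lower in IP. Coordinates are those of GRCm38 in GENCODE M21, where all 10 genes are protein-coding. Phgdh (ENSMUSG00000053398, chromosome 3, 98313170 to 98339990, minus strand), the first enzyme, stood at 23.8, 25.1, 19.7 and 25.4 CPM (counts relative to the library total, scaled by TMM factors) in input replicates 1 to 4. In IP replicates 1 to 4 it stood at 5.22, 5.09, 6.32 and 4.27 CPM. Every IP library lay below every input library, and the lowest input value was about 3 times the highest IP value. The mean went from 23.5 ± 2.6 to 5.22 ± 0.84 CPM (SD, n = 4), a 4.49-fold lower level, with a log2 fold change of -2.17 ± 0.16 (SE, edgeR adjusted p = 8.99e-07).

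Psat1, the aminotransferase (ENSMUSG00000024640, chromosome 19, 15904678 to 15947337, minus strand), had the highest input level of the 3 synthesis genes. It stood at 73.6, 80.2, 64.4 and 72.8 CPM in input and at 28.0, 31.7, 23.8 and 26.1 CPM in IP. The fractions did not overlap, and the level was 2.66-fold lower in IP (log2 fold change -1.41 ± 0.11, SE, edgeR adjusted p = 1.23e-06, n = 4 per fraction). Psph, the phosphatase (ENSMUSG00000029446, chromosome 5, 129765558 to 129787449, minus strand), stood at 6.92, 6.49, 7.43 and 8.33 CPM in input. In IP it stood at 4.19, 5.03, 2.65 and 3.39 CPM, again with no overlap, a 1.91-fold lower level (log2 fold change -0.93 ± 0.23, SE, edgeR adjusted p = 0.00678). Psph overlaps the far more abundant Cct6a on the opposite strand, and without a stated strand setting its reads are uncertain. Of all tested genes 24% had every IP library below every input library. All 3 calls held in each of the 19 alternative analyses, where Phgdh ranged from -2.37 to -2.06, Psat1 from -1.54 to -1.31 and Psph from -1.14 to -0.79 on the log2 scale.

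Phgdh was lower by a larger factor than the other two. Ratios of estimated counts within a library, which need no scaling between libraries, were compared for 6 gene pairs by 2-sided exact permutation tests over the 8 libraries. The 70 arrangements allow no p below 0.0286. The ratio of Psat1 to Phgdh was 3.10 in input and 5.25 in IP, and that of Psph to Phgdh was 0.311 and 0.719 (geometric means). On the log2 scale these shifts were 0.76 and 1.21. In both pairs all 4 IP libraries were above all 4 inputs, with an exact p of 0.0286 and 0.0429 after adjustment over the 6 pairs. Since Phgdh was lower in IP, a gene of equal level in both fractions also shifts upward against it. The share of all gene pairs with separate fractions was not computed. Of single tested genes, 24.1% had every IP library above every input and 24% had every IP library below. IP replicate 3 was the lowest IP library in both ratios, with log2 values of 1.91 and -1.25 against highest input values of 1.71 and -1.41.

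**Figure D1:**
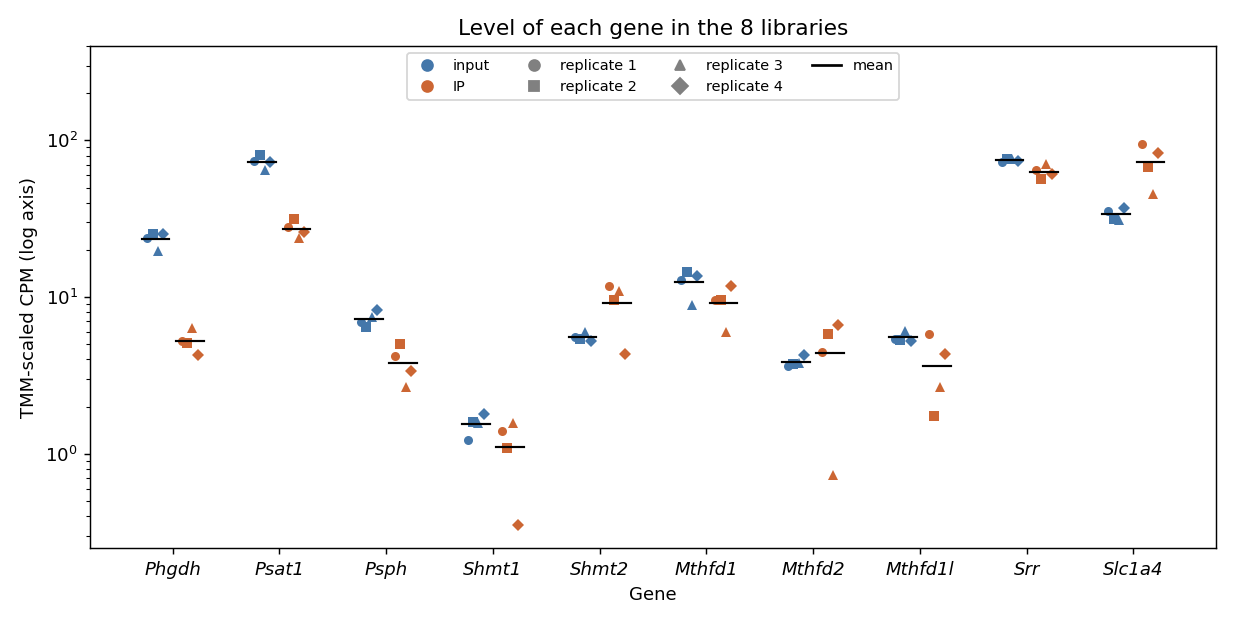
Level of each of the 10 genes in TMM-scaled CPM (log axis) in the 4 input and 4 IP libraries, with marker shapes for replicate numbers and a line at each mean. The 4 IP values of Phgdh, from 4.27 to 6.32 CPM, lie below its 4 input values, from 19.7 to 25.4 CPM, whereas those of Slc1a4 lie above, and Shmt1, Shmt2, Mthfd2 and Mthfd1l each spread widely in IP.

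The markers of astrocytes were lower in IP as well. All 14 astrocyte markers of the list were called lower, with log2 fold changes from -2.22 to -0.99 and a median of -1.74. Their summed level ran from 3392 to 4231 CPM in input and from 989 to 1370 CPM in IP, and none was at 0 in IP. Slc1a3, a glial glutamate transporter gene, was at -2.22 ± 0.12 (SE), the glycolytic gene Aldoc at -1.58 ± 0.08 and the intermediate filament gene Gfap at -0.99 ± 0.13. The values of Phgdh and Psat1 lie within this range and that of Psph just outside it. Markers of other cell types were lower too, so such values are not particular to astrocytes. Median log2 fold changes were -1.73 for oligodendrocytes, -1.86 for their precursors, -1.84 for microglia and -1.74 for other neurons. They were -1.30 for tanycytes and ependyma and -0.84 for vessels. Marker RNA of astrocytes thus remained in IP. How much of the IP level of the 3 genes came from RNA of such cells was not tested. The part of astrocyte RNA in their lower levels was not tested either.

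Each of the 10 genes was also set against the summed astrocyte markers of its own library, a comparison added after the data had been seen. In input the largest parts of the sum were Slc1a2 (mean 1656 CPM) and Aldoc (899 CPM), with log2 fold changes of -1.88 and -1.58. The log2 ratio of Phgdh to that sum was -7.36 ± 0.06 in input and -7.74 ± 0.14 in IP (SD, n = 4), a shift of -0.38 with every IP library below every input. Its exact permutation p was 0.0286 and, adjusted over the 10 genes, 0.0571, so the shift did not pass the threshold. Psat1 and Psph shifted by 0.38 and 0.83, with overlapping fractions and adjusted p-values of 0.127 and 0.122 by the same exact test. Slc1a4 shifted by 2.85, Shmt2 by 2.41, Srr by 1.55 and Mthfd1 by 1.33, each with separate fractions, an exact p of 0.0286 and an adjusted p of 0.0571. The sum itself fell from a mean of 3854 to 1119 CPM, so a gene of equal level in both fractions also shifts upward. The share of all tested genes with separate fractions on this ratio was not computed. Over 11 alternatives these 4 genes and Phgdh passed in 3, those without IP replicate 2, 3 or 4, with adjusted exact p-values from 0.0357 to 0.208. The other 5 genes passed in 1 each, Psat1, Psph and Mthfd2 without IP replicate 3, Shmt1 without IP replicate 4 and Mthfd1l without IP replicate 2, and their highest adjusted p was 0.314.

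By likeness of pattern, measured as Pearson's correlation of log2 CPM over the 8 libraries among the 8466 genes whose mean reached 10 CPM, the genes closest to Phgdh were Acsbg1 (r = 0.999), Ttll7 (0.998) and Aldoc (0.997). Acsbg1, an acyl-CoA synthetase gene, and Aldoc are both in the astrocyte list, at log2 fold changes of -1.80 and -1.58, and Ttll7 was at -0.93. The genes closest to Srr were Fgf9 (0.989), Cald1 (0.988) and Myo1h (0.985), at -1.07, -0.85 and -1.69. Such values mainly reflect the step between the fractions that the 8 libraries share.

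Srr (ENSMUSG00000001323, chromosome 11, 74906359 to 74925948, minus strand) differed little between the fractions, and it overlaps Tsr1 and Smg6 on the opposite strand. Its level was 72.7, 75.5, 76.0 and 73.6 CPM in input and 64.3, 56.5, 70.4 and 61.4 CPM in IP. The fractions did not overlap, though the highest IP value came close to the lowest input value. The log2 fold change was -0.24 ± 0.08 (SE), a 1.18-fold lower level, with an edgeR adjusted p of 0.0298. The call was lost in 9 of the 19 alternatives, namely with library totals alone (-0.14, adjusted p = 0.241), with GC and length offsets (-0.13, 0.183) and the replicate block added to them, and without any 1 input library or without IP replicate 2 or 4 (-0.24 to -0.18, 0.0593 to 0.0921). Relative to Phgdh, Srr was higher in IP, which restates the larger fall of Phgdh, since Srr itself was lower. The count ratio of Srr to Phgdh was 3.18 in input and 12.1 in IP, a log2 shift of 1.93 with separate fractions (exact permutation p = 0.0286, adjusted over 6 pairs 0.0429, n = 4 per fraction).

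Slc1a4 (ENSMUSG00000020142, chromosome 11, 20302180 to 20332713, minus strand) was the one gene called higher. It stood at 35.2, 31.6, 31.2 and 37.0 CPM in input and at 95.4, 67.7, 45.1 and 82.8 CPM in IP. All IP libraries lay above all inputs, as did 24.1% of tested genes, and IP replicate 3 was the lowest of the IP libraries. The mean was 33.8 ± 2.8 CPM in input and 72.7 ± 21.6 CPM in IP (SD, n = 4), a 2.15-fold higher level (log2 fold change 1.11 ± 0.19, SE, edgeR adjusted p = 0.000588). The call held in all 19 alternatives, from 0.95 to 1.28 on the log2 scale.

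**Figure D2:**
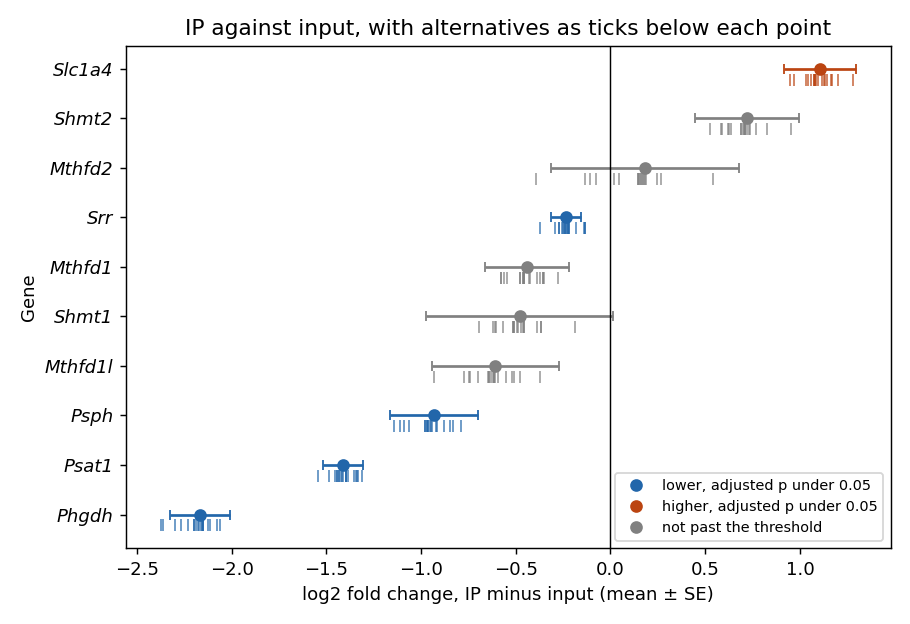
Log2 fold change of each of the 10 genes in IP against input (point with SE, n = 4 per fraction), coloured by the call, with the values of the 19 alternatives as ticks below each point. Phgdh, Psat1 and Psph lie at -2.17, -1.41 and -0.93, Slc1a4 at 1.11, and only the ticks of Mthfd2 fall on both sides of 0.

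The balance of the hydroxymethyltransferase genes differed between the fractions as a ratio within libraries, though neither gene was called in the main fit. Shmt2, the mitochondrial form (ENSMUSG00000025403, chromosome 10, 127517123 to 127522444, minus strand), stood at 5.57, 5.43, 6.01 and 5.26 CPM in input and at 11.7, 9.57, 11.0 and 4.33 CPM in IP. In 3 of 4 IP libraries it was above all inputs, and in IP replicate 4 it was below all of them. The log2 fold change was 0.72 ± 0.27 (SE), with an edgeR adjusted p of 0.0505 that missed the threshold. Without IP replicate 4 it was 0.95 with an adjusted p of 0.000918. Shmt2 was also called higher by DESeq2 (0.69, adjusted p = 0.0397), with library totals alone (0.83, 0.032) and without mitochondrial and ribosomal RNA genes (0.73, 0.0492). The shares of all genes called higher were 25.2%, 28.4% and 24.7% in these analyses, and 23.5% without IP replicate 4.

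Shmt1, the cytosolic form (ENSMUSG00000020534, chromosome 11, 60788104 to 60811718, minus strand, overlapped by Smcr8 on the opposite strand), was the least abundant of the 10 genes. It stood at 1.22, 1.59, 1.58 and 1.79 CPM in input and at 1.40, 1.10, 1.57 and 0.352 CPM in IP, where the lowest library, replicate 4, held 14.5 estimated counts. The log2 fold change was -0.48 ± 0.49 (SE, edgeR adjusted p = 0.46). The same library was thus lowest in IP for both forms. Within libraries the ratio of Shmt2 to Shmt1 was separate between fractions, at log2 values of 2.18, 1.77, 1.91 and 1.55 in input and 3.06, 3.12, 2.81 and 3.52 in IP. As a count ratio this was 3.61 in input and 8.73 in IP, a log2 shift of 1.27 (exact permutation p = 0.0286, adjusted over 6 pairs 0.0429). The adjusted exact p was 0.0857 without any 1 input library. With sign flips of same-numbered pairs it was 0.188.

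None of the 3 MTHFD genes was called with all 8 libraries and no replicate block. Mthfd1, the cytosolic trifunctional enzyme gene (ENSMUSG00000021048, chromosome 12, 76255298 to 76319803, plus strand), stood at 12.8, 14.6, 8.96 and 13.6 CPM in input and at 9.63, 9.51, 5.97 and 11.7 CPM in IP. Replicate 3 was lowest in both fractions, and the fractions overlapped (log2 fold change -0.44 ± 0.22, SE, edgeR adjusted p = 0.129). Mthfd1l, a mitochondrial formyl-tetrahydrofolate synthetase gene (ENSMUSG00000040675, chromosome 10, 3973118 to 4167081, plus strand), stood between 5.28 and 6.05 CPM in input and at 5.80, 1.74, 2.65 and 4.33 CPM in IP. In 3 of 4 IP libraries it was below all inputs (log2 fold change -0.61 ± 0.34, SE, edgeR adjusted p = 0.167), and without IP replicate 1 it was called lower (-0.93, adjusted p = 0.0304). In that fit 22.1% of all tested genes were called lower.

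Mthfd2, a mitochondrial dehydrogenase and cyclohydrolase gene (ENSMUSG00000005667, chromosome 6, 83305691 to 83325908, minus strand), varied most between IP libraries. It stood at 3.66, 3.74, 3.82 and 4.28 CPM in input and at 4.46, 5.82, 0.736 and 6.61 CPM in IP. In 3 IP libraries it was above all inputs, while IP replicate 3 held 51 counts against 252 to 308 in the others. The log2 fold change was 0.18 ± 0.50 (SE, edgeR adjusted p = 0.794), and without IP replicate 3 it was 0.54 with an adjusted p of 0.0486, where 25.9% of all genes were called higher. Neither ratio to Mthfd1 separated the fractions. That of Mthfd1l shifted by -0.29 on the log2 scale and that of Mthfd2 by 0.25, with exact permutation p-values of 0.571 and 0.714 (adjusted 0.686 and 0.714).

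**Figure D3:**
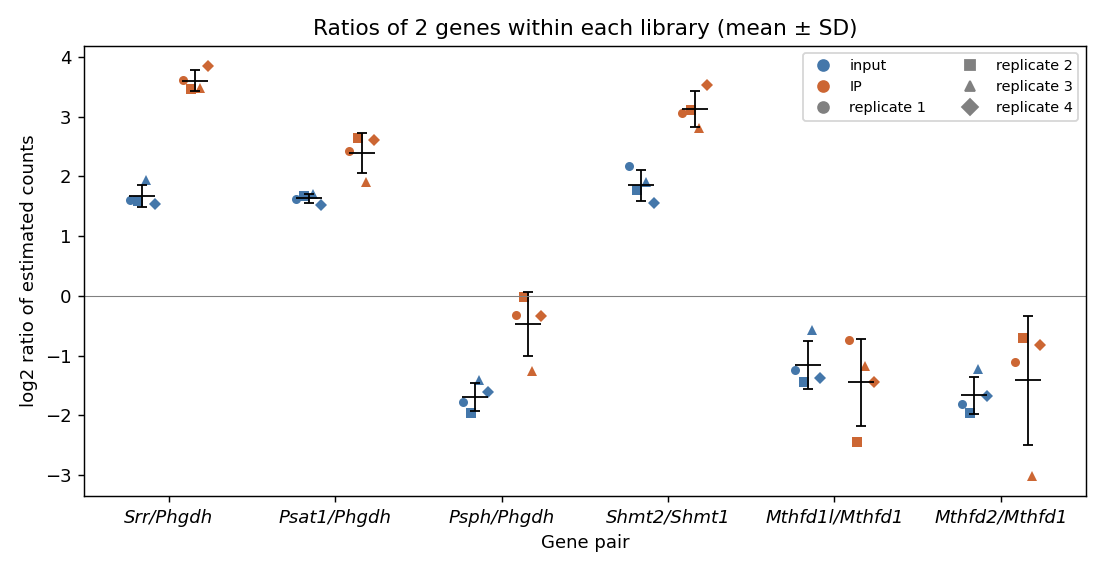
Log2 ratio of the estimated counts of 2 genes within each library (points, with mean ± SD, n = 4 per fraction) for the 6 gene pairs. The IP and input values are separate for Srr, Psat1 and Psph over Phgdh and for Shmt2 over Shmt1, and they overlap for both ratios to Mthfd1. The share of all gene pairs with separate fractions was not computed.

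The 4 genes of lowest input level varied most in IP. The SD of log2 CPM over the 4 IP libraries was 1.45 for Mthfd2, 0.94 for Shmt1, 0.76 for Mthfd1l and 0.66 for Shmt2, beside a median of 0.36 over all tested genes. In input the same 4 genes had SDs of 0.10, 0.23, 0.09 and 0.08, beside a median of 0.14. Srr, with SDs of 0.03 in input and 0.13 in IP, varied least in both fractions. The smallest estimated count behind a value was 170 for Phgdh, 1037 for Psat1, 135.3 for Psph and 14.5 for Shmt1.

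Levels of different genes can be compared only per length, and for this the counts were divided by the length of the longest protein-coding transcript and scaled to the same total in every library (TPM). In input the order was Psat1 (50.2 ± 5.7 TPM, SD, n = 4), Srr (36.3 ± 1.9), Phgdh (22.4 ± 2.7), Slc1a4 (15.5 ± 0.95), Psph (7.58 ± 0.70), Mthfd1 (6.96 ± 1.5), Shmt2 (4.39 ± 0.30), Mthfd2 (3.35 ± 0.23), Mthfd1l (2.70 ± 0.20) and Shmt1 (0.977 ± 0.16). Of neighbours in this order only Psph and Mthfd1 overlapped over the 4 libraries. In IP the order was Slc1a4 (39.0 ± 10.5 TPM), Srr (36.2 ± 4.2), Psat1 (22.2 ± 2.9), Shmt2 (8.55 ± 3.2), Mthfd1 (5.98 ± 1.4), Phgdh (5.88 ± 1.2), Psph (4.67 ± 1.3), Mthfd2 (4.42 ± 2.6), Mthfd1l (2.06 ± 0.98) and Shmt1 (0.831 ± 0.41). Slc1a4 overlapped with Srr and with Psat1, the 5 genes from Shmt2 to Mthfd2 overlapped with one another, and Mthfd1l overlapped with Mthfd2 and Shmt1. With the median length of protein-coding transcripts in place of the longest, Psph (13.1 TPM) moved above Slc1a4 (12.5) in input, as did Mthfd2 (4.41) above Shmt2 (3.54). In IP, Srr (31.1) then stood above Slc1a4 (28.6), and the middle order became Psph (7.35), Phgdh (6.93), Shmt2 (6.29), Mthfd2 (5.32) and Mthfd1 (4.65). The order of the levels thus depends on the length used. RNA of other cell types in IP was not subtracted from these levels. TPM carry no TMM factors and are relative to a total weighted by length, and on this scale Srr stood at 36.3 and 36.2 TPM.

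**Figure D4:**
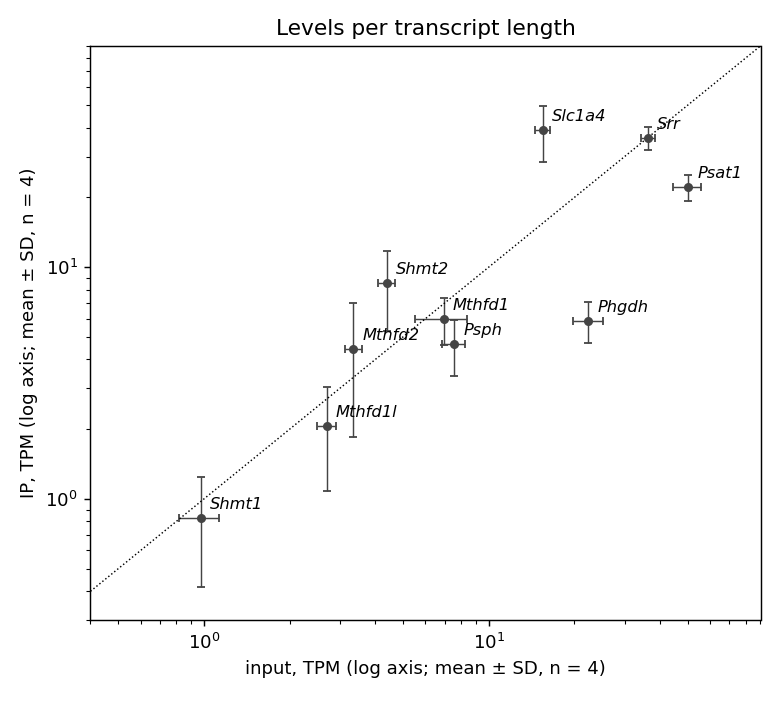
Level per transcript length in TPM, input on the horizontal and IP on the vertical axis (both log axes; mean ± SD, n = 4), with equal levels on the dotted line. Phgdh, Psat1 and Psph lie below the line, Slc1a4 and Shmt2 above it, and Srr on it.

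The other genes of the surrounding pathways were taken from 7 lists. In the folate cycle 2 of 14 tested genes were lower, with a median log2 fold change of 0.16 over the list. The cytosolic formyl-tetrahydrofolate dehydrogenase gene Aldh1l1, also widely used as an astrocyte marker, was lower (-1.57 ± 0.24, SE, edgeR adjusted p = 0.000245), as was Mthfd2l, a mitochondrial relative of Mthfd2 (-0.64 ± 0.15, adjusted p = 0.00399). The mitochondrial form Aldh1l2 had -0.10 ± 0.20 (adjusted p = 0.724), and its sign turned with library totals alone and without IP replicate 1. Ftcd, Folr1 and Folr2 were too low to be tested.

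Of 5 tested genes of glycine cleavage and degradation 1 was higher and 2 were lower, with a median of -0.47. Gcsh, the carrier protein gene of the cleavage system, was higher (0.44 ± 0.08, edgeR adjusted p = 0.00119), and Dld, the gene of the lipoamide dehydrogenase shared with other complexes, was lower (-0.47 ± 0.08, adjusted p = 0.000666). Dld was not called with GC and length offsets (-0.14, adjusted p = 0.202). The glycine decarboxylase gene Gldc was at 1.76 CPM in input and 0.530 CPM in IP (-1.73 ± 0.65, adjusted p = 0.0485), a call lost in 8 of 19 alternatives, among them those without any 1 input library or without IP replicate 3.

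In the methionine cycle and transsulfuration list 2 of 12 tested genes were higher and 4 lower (median -0.06). The higher genes were Ahcy, the adenosylhomocysteinase gene (0.86 ± 0.10, edgeR adjusted p = 4.6e-05), and the methionine synthase reductase gene Mtrr (0.73 ± 0.20, adjusted p = 0.013). The lower ones with the smallest p were Ahcyl1 (-0.65 ± 0.07) and Mat2a, a methionine adenosyltransferase gene (-0.52 ± 0.06). Cbs, which joins serine to homocysteine, went from 12.3 ± 1.8 to 3.90 ± 3.0 CPM (SD, n = 4; log2 fold change -1.64 ± 0.50, SE, adjusted p = 0.0187). Cbs was not called without input replicate 4 (-1.55, adjusted p = 0.053) or without IP replicate 2 (-1.49, 0.054). Purine synthesis, which uses formyl-folate, had 2 of 8 genes higher and 0 lower (median 0.04). These were Atic, whose product uses such a formyl group (1.29 ± 0.10), and Prps1 (0.50 ± 0.10).

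Of 11 tested genes of serine use in lipids 5 were higher and 2 lower (median 0.12). Sptssa, a small subunit of serine palmitoyltransferase, was higher (1.68 ± 0.15), as was Serinc3 (0.54 ± 0.07), whereas Serinc4 (-2.04 ± 0.43) and the alternative small subunit gene Sptssb (-1.48 ± 0.38) were lower. Sptssb was not called with GC and length offsets and the replicate block together (-1.11, adjusted p = 0.0712). In the list of serine and glycine transport and D-serine 3 of 14 tested genes were higher and 3 lower (median -0.49). The amino acid transporter genes Slc38a4 (2.21 ± 0.27) and Slc38a1 (0.57 ± 0.07) were higher. The glycine transporter gene Slc6a9, known from glia (-1.72 ± 0.15), and Slc38a2 (-0.79 ± 0.09) were lower. Slc7a10, an exchanger of serine and D-serine, had 0.19 ± 0.14 (edgeR adjusted p = 0.287). Slc1a5, the closest relative of Slc1a4 among these genes, stood at 0.532 CPM in input and 0.559 CPM in IP, and the D-amino acid oxidase gene Dao at 0.280 and 0.133 CPM, neither of them called.

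ATF4 is known to induce serine synthesis genes under amino acid or mitochondrial stress. Atf4 RNA itself was at 70.4 CPM in input and 75.3 CPM in IP (log2 fold change 0.10 ± 0.10, SE, edgeR adjusted p = 0.467), and its sign turned with upper quartile factors (-0.04) and with GC and length offsets (-0.09). Of 18 tested genes of the list of ATF4 and its targets 3 were higher and 5 lower (median -0.18), and without input replicate 4 the lower genes numbered 3. Over the 19 alternatives the lower genes numbered 3 to 7 and the higher genes 2 to 4. The related factor genes Atf5 (1.38 ± 0.16) and Atf3 (2.10 ± 0.50) were higher, and the cystine transporter gene Slc7a11 (-1.84 ± 0.17) and Vldlr (-0.67 ± 0.11) were lower.

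**Figure D5:**
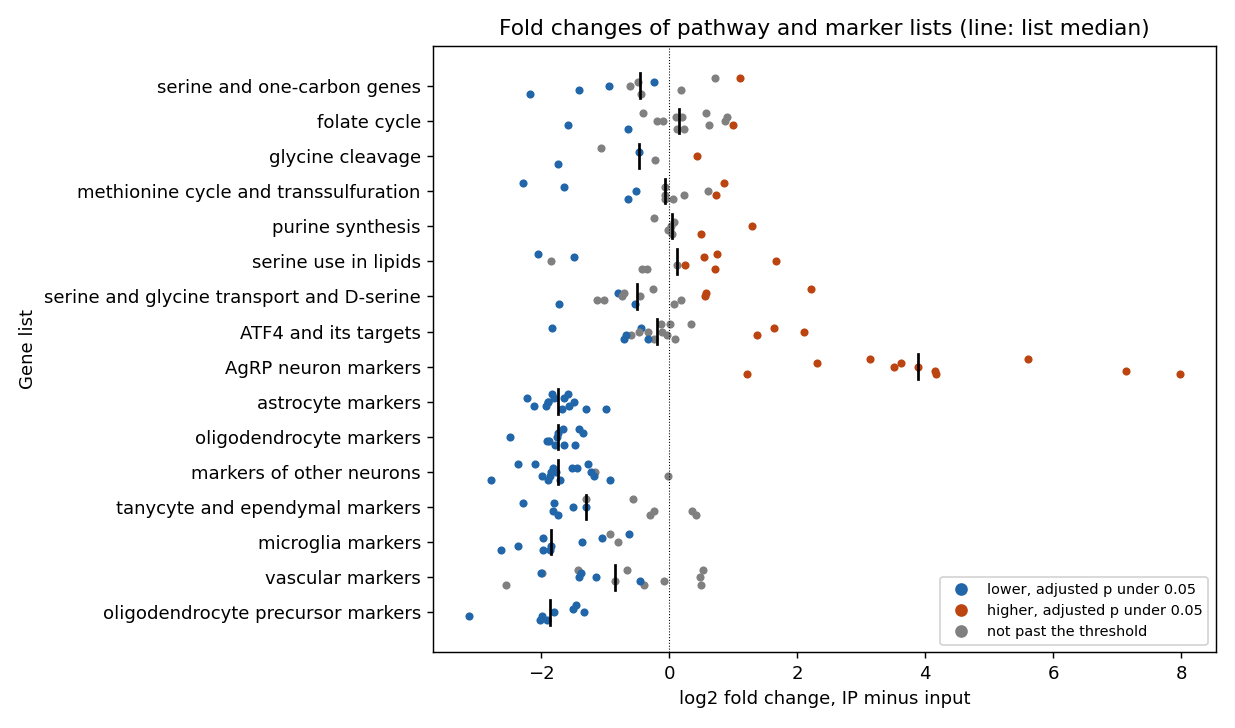
Log2 fold change in IP against input of each tested gene of the serine and one-carbon list, 7 pathway lists and 8 marker lists, coloured by the call, with a line at each list's median. The pathway lists spread on both sides of 0 with medians from -0.49 to 0.16. The 14 astrocyte markers lie between -2.22 and -0.99, and the 11 AgRP neuron markers lie between 1.21 and 7.98. The remaining marker lists have medians from -1.86 to -0.84.

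As to the libraries, totals ran from 39902127 to 74607637 estimated counts, of which 8164 to 18509 fell on the 10 genes. Mff was present in every library, at 112.2 to 131.9 CPM in input and 64.0 to 71.2 CPM in IP, which does not check the deletion, since reads outside a deleted part still count. Agrp went from 3.35 ± 0.74 to 843 ± 170 CPM (SD, n = 4), and all 11 AgRP neuron markers were higher in IP. Markers of other cells were lower, with 11 of 11 for oligodendrocytes, 8 of 8 for their precursors, 9 of 11 for microglia, 6 of 12 for tanycytes and ependyma, 5 of 15 for vessels and 16 of 18 for other neurons, and 0 higher in each of these lists. No marker of these lists was at 0 in all IP libraries. Each library is labelled as a pool of mice, but no label says whether an input and an IP came from the same pool. The p-values measure only the spread between these libraries.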

How the data were processed

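RNA of 4 input and 4 IP libraries was sequenced. The authors deposited estimated counts per gene, without normalization, and the submitters' processing notes name Salmon 0.14.1 and build GRCm38.p6. Which annotation release, read trimming and strand option they used is not given in the sources used here. Counts, rounded to whole numbers, entered edgeR 4.0.16 under R 4.3.3 (filterByExpr with a minimum count of 10, TMM factors, quasi-likelihood test, no covariate). SE is the absolute log2 fold change over the square root of F. For ratios 0.5 was added to each count. Alternatives used DESeq2 1.42.0 and limma 3.58.1 (voom), other scalings and filters, offsets and blocks, and left out each library. The edgeR fit and the permutation test were tried on simulated data. Coordinates and lengths came from GENCODE M21 (GRCm38), which held 98.8% of identifiers, and promoters from RefSeq.

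Salmon divides reads that fit several genes. Phgdh, Psat1, Psph, Shmt1 and Srr had counts that were not whole (tolerance 1e-06). On the opposite strand, Psph overlaps Cct6a, Shmt1 overlaps Smcr8 and Srr overlaps Tsr1 and Smg6, so their reads may not be separable without strand. Shmt2 overlaps Ndufa4l2, but its counts were whole in every library, and Ndufa4l2 reached at most 25 counts. These overlaps are of whole gene spans, and overlap of exons was not examined.

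The 10 genes and the lists were chosen with earlier results of these data known. Text names the 10 genes, preset genes of interest and, per pathway list, the 2 genes with the smallest p in each direction. Some folate cycle results under this rule are not reported here. Marker lists are given as counts, most with a median. Astrocyte markers are also given with named genes, fold changes and sums, and AgRP neuron markers with a range and the level of Agrp. Ratios to astrocyte markers and the CCAAT search were added after the data were seen.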

Additional observations from a re-analysis of the deposited data

How the results depend on the processing

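The number of genes called kept within 1.5 times its value of 7716 in all 19 alternatives. Upper quartile factors moved the median of all genes from -0.01 to -0.15 on the log2 scale and the share of called genes that were higher from 54.1% to 43.3%, with no change of sign for the 10 genes. The number of the 10 genes called higher was 2 in place of 1 with library totals alone, with DESeq2 and without mitochondrial and ribosomal RNA genes, Shmt2 being the added gene each time, and ran from 1 to 2 when single libraries were left out. The number called lower ran from 3 to 5. Over the same alternatives the share of all tested genes called lower ran from 16% to 27.1%, and that called higher from 13.9% to 28.7%. Mthfd2, called only without IP replicate 3 (0.54), turned to -0.39 in limma-voom, -0.11 with the replicate block, -0.13 with GC and length offsets and the replicate block, and -0.076 without IP replicate 4, while the cause was not tested. The log2 ratio of Mthfd1l to Mthfd1 was 0.041 without IP replicate 2 and reached -0.53, and that of Mthfd2 to Mthfd1 ran from 0.02 to 0.78. The other ratio shifts ran from 1.85 to 2.02 (Srr to Phgdh), 0.68 to 0.92 (Psat1 to Phgdh), 1.06 to 1.47 (Psph to Phgdh) and 1.14 to 1.38 (Shmt2 to Shmt1) when single libraries were left out. Without an input library their adjusted exact p was 0.0857, and without an IP library 0.0429. Same-numbered input and IP libraries had correlated deviations of 0.07, 0.05, 0.06 and 0.08, each the highest for its library. Those of differently numbered libraries were all negative, from -0.038 to -0.002. The values are small and no label pairs the samples. The main fit therefore left the numbers out, and whether they mark pairs was not settled. With the replicate block 7592 genes were called, 7186 of them shared, and Mthfd1 was called lower (-0.46, adjusted p = 0.0499). That fit called 21.8% of all tested genes lower. In the paired form of the ratio tests, which cannot go below 0.125, the shifts of 1.93, 0.76, 1.21 and 1.27 had an adjusted p of 0.188. At 14.5 to 117.6 counts, Shmt1 is the gene most limited by depth.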

Other observations

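Genes shared by most neurons went both ways. Of 10 pan-neuronal genes 2 were higher and 7 lower, with a median log2 fold change of -0.75, between the median of the 10 serine and one-carbon genes (-0.46) and that of the astrocyte markers (-1.74). Summed over their genes, the 10 serine and one-carbon genes took 225.2 to 249.6 CPM in input and 170.2 to 230.1 CPM in IP, ranges that overlap. Cbs, the transsulfuration gene that uses serine, ranged more widely in IP, with 7.80, 2.67, 4.37 and 0.754 CPM over the 4 libraries, than in input, with 9.87 to 14.2 CPM.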
